A study of Homo sapiens with 6 samples.

Results

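Cytochrome c, the product of the human gene CYCS, was represented by 14 of the 9600 spots of a cDNA array, and all 14 were among the 9169 spots that were tested. The spots were found as those whose platform annotation gives CYCS, and each carried a clone accession of its own. The gene itself was chosen by its differences between the groups in earlier results of these data, in which spots low in DN-TRF2 relative to GFP control stood out. Its values in that comparison are therefore given as a description, and no p-value is read as a test of the gene. The gene lies on chromosome 7 of GRCh38.p14, from 25118656 to 25125260 on the minus strand.

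The samples were SH-SY5Y cells, an established human neuroblastoma line. In the 3 DN-TRF2 samples the vector pIRES2-EGFP held a dominant-negative version of the telomere-binding shelterin protein TRF2. The 3 GFP control samples carried the vector pEGF-C2 with no insert, so that insert and vector backbone cannot be told apart. Both groups were selected in geneticin at 500 µg/ml, RNA was taken on day 7 after transfection in 3 independent experiments, and radiolabelled cDNA of each went onto 1 array. The series title concerns the neuronal differentiation programme when TRF2 is inhibited, and the contrast asks which transcripts differ with the dominant-negative protein.

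Cytochrome c is a small heme protein of the mitochondrial intermembrane space. It carries electrons from complex III, where cytochrome c1 hands them over, to complex IV, which reduces oxygen. When mitochondria of a dying cell release it into the cytosol, it binds APAF1, and the assembled apoptosome activates caspase-9. The reference gene table also lists 45 CYCS pseudogenes, and a cDNA spot may hybridize with related sequences.

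Array medians ran from 480 to 712 intensity units over the spots tested, and the number of arrays limits the precision. No tested spot was named TERF2, so its level could not serve as a check of the labels. Of 12 noradrenergic neuroblastoma markers, 7 were measured, among them DBH, GATA2 and GATA3. All 7 lay above the median signal, from percentile 56.8 for GATA2 to percentile 92.0 for the granule protein gene CHGB. TH, which also defines this cell type, was not analysed here. Of 12 substrate-adherent or stromal markers, 8 were measured and their percentiles ran from 12.3 for VIM to 99.1 for FN1. Signal also varied widely between spots of 1 gene, so these percentiles say little about transcript level.

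The CYCS spots covered a wide range of signal. The brightest was spot 5449, at the 84.9th percentile of signal over all spots, with intensities of 1859.55, 2428 and 2668 on the DN-TRF2 arrays (replicates 1 to 3) and 1254, 1931 and 2531 on the GFP control arrays. The dimmest was spot 8469, at the 25.2nd percentile, with 138, 234 and 280.2 in DN-TRF2 and 153, 263 and 342 in GFP control. The mean intensity of the brightest spot was thus 10.7 times that of the dimmest in DN-TRF2 and 7.55 times in GFP control. Of the 14 spots, 7 lay below the median signal of all spots and none reached the value of 10 that marks spots without signal. The order of the spots was much the same on every array, with Spearman correlations over the 14 spots between 0.811 and 0.987 for pairs of arrays. Levels were therefore compared within a spot only.

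**Figure D1:**
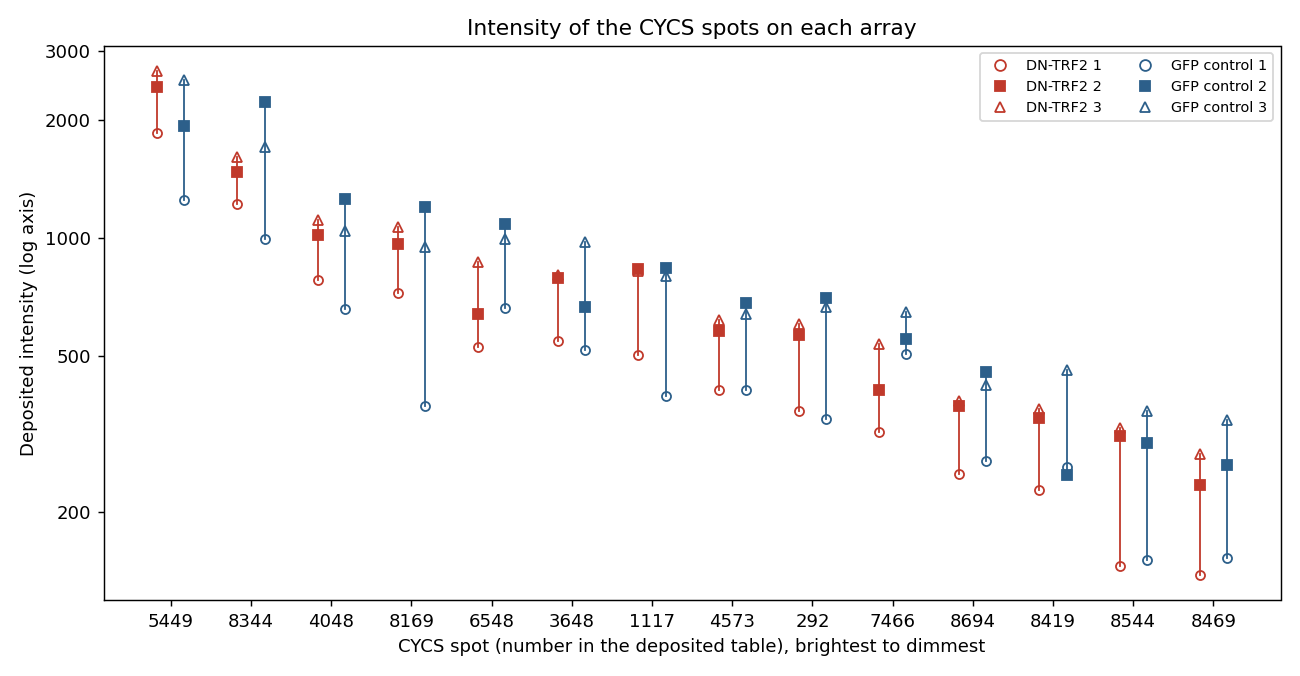
Deposited intensity (log axis) of the 14 CYCS spots, brightest to dimmest, on the 3 DN-TRF2 arrays (red, left in each pair) and the 3 GFP control arrays (blue, right); each symbol is 1 array and lines join the lowest and highest of a group. Replicate 1 is the lowest DN-TRF2 array at every spot, and the groups overlap in these unnormalized values throughout.

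After addition of 50, log2 and quantile normalization, 11 of the 14 CYCS spots had a lower mean in DN-TRF2 and 3 a higher one. Over all 9169 spots 52.7% had a lower mean. Differences ran from -0.47 to 0.33 (log2, DN-TRF2 minus GFP control) with a median of -0.11, against a median of -0.011 over all spots. Standard errors (SE) of a difference are taken here and below from limma's moderated fit. In limma's fit 0 of the 14 passed at an adjusted p under 0.05, where 0% of all spots passed and the smallest adjusted p was 0.999. An unadjusted p under 0.05 was found at 2 of the 14, against 3.41% of all spots (313, or 527 with the replicate number as a block), and nothing is read from these counts since the contrast had served to choose the gene.

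Spot 7466 had the lowest difference. Its intensities were 319.7, 409 and 537 in DN-TRF2 and 507, 552 and 647 in GFP control. Normalized, it averaged 8.82 ± 0.16 in DN-TRF2 and 9.29 ± 0.11 in GFP control (SD, log2, n = 3 each), a difference of -0.47 ± 0.15 (SE). Every DN-TRF2 array lay below every control array after normalization, although the DN-TRF2 replicate 3 intensity was above that of GFP control replicate 1 before it.

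Spot 6548 came next, with intensities of 528, 639 and 867 in DN-TRF2 and 663, 1084 and 997 in GFP control. It averaged 9.46 ± 0.16 in DN-TRF2 and 9.88 ± 0.25 in GFP control, a difference of -0.43 ± 0.17 (SE). Its normalized groups did not overlap either. These were the 2 CYCS spots without overlap, both lower and 0 higher. Among all spots 8.70% had no overlap, 4.43% with a lower and 4.28% with a higher mean.

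Spot 5449, the brightest, went the other way, at 11.21 ± 0.14 in DN-TRF2 and 10.89 ± 0.26 in GFP control, a difference of 0.33 ± 0.17 (SE). It was higher in DN-TRF2 at each of the 3 replicate numbers, by 0.46, 0.35 and 0.18, but the groups overlapped. Spot 8169 had intensities of 722, 963 and 1068 in DN-TRF2 and 374, 1203 and 948 in GFP control. Its difference of 0.24 ± 0.29 (SE) rests on GFP control replicate 1, the lowest of its 6 arrays. Without that array the difference was -0.11. Spot 1117 was the third with a higher mean, by 0.10 ± 0.22, and lay on the other side of 0 without GFP control replicate 1 as well (-0.11).

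The other 9 spots differed by between -0.24 and -2.0e-05, each with overlapping groups. Among them, spot 8469 differed by -0.24 ± 0.20, spot 8694 by -0.20 ± 0.19 and spot 292 by -0.16 ± 0.21. Spot 4048 had the smallest difference, averaging 9.97 ± 0.12 in DN-TRF2 and 9.97 ± 0.36 in GFP control. Of all 14 spots, 7 lay within 0.15 of 0.

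Within replicate numbers, 9, 11 and 9 of the 14 spots were lower in DN-TRF2 at replicates 1, 2 and 3. Spots 292, 6548, 7466, 8469, 8544 and 8694 were lower at all 3 numbers, 6 of 14 where 14.7% of all spots were. Spot 8469 differed by -0.20, -0.33 and -0.19 at the 3 numbers and spot 8694 by -0.17, -0.39 and -0.052. Spot 5449 was the 1 spot of 14 higher at all 3, where 11.0% of all spots were. Nothing is read from these counts, as they come from the contrast that chose the gene.

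Averaged over the 14 spots within each array, CYCS lay at 9.11, 9.45 and 9.38 in DN-TRF2 replicates 1 to 3 and at 9.12, 9.68 and 9.40 in GFP control replicates 1 to 3. The group means were 9.31 ± 0.18 in DN-TRF2 and 9.40 ± 0.28 in GFP control (SD, n = 3 each). The difference of -0.093 was smaller than the SD of either group, and the groups overlapped. At matching replicate numbers DN-TRF2 minus GFP control was -0.015, -0.24 and -0.027, largest in size at replicate 2. GFP control replicate 2 was the highest of the 6 arrays at 10 of the 14 spots, and DN-TRF2 replicate 1 was the lowest of its group at all 14.

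Single arrays set the sign of the mean. Without GFP control replicate 2 the difference turned to 0.046, with 6 of 14 spots lower, and without DN-TRF2 replicate 1 it was 0.0074, with 7 of 14 lower. It was -0.23 without GFP control replicate 1, with 13 of 14 lower, and -0.16 without DN-TRF2 replicate 2, with 12 of 14 lower. Among the 7 spots of at least median signal the mean difference was 0.012, and 4 of these 7 were lower.

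**Figure D2:**
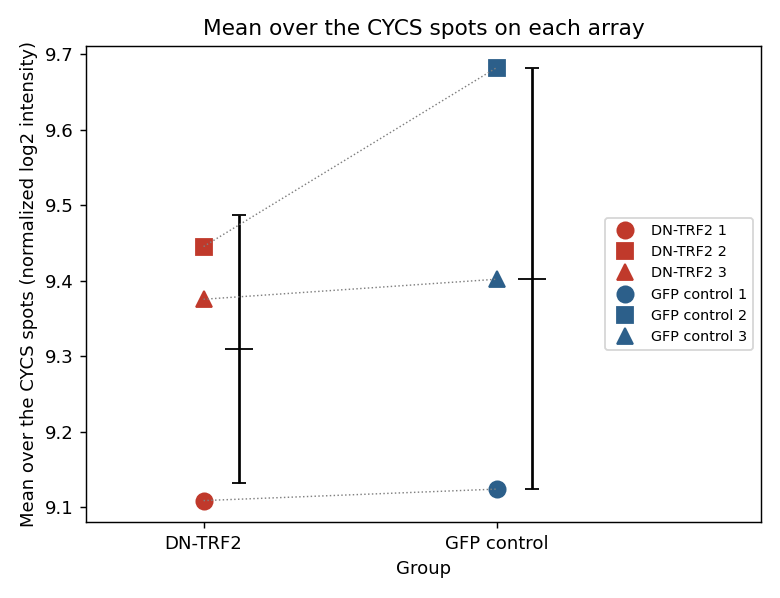
Mean over the 14 CYCS spots (normalized log2 intensity) on each DN-TRF2 array (left) and GFP control array (right); dotted lines join arrays of the same replicate number, and bars give the group mean ± SD over 3 arrays. Both groups span replicate 1 at the bottom to replicate 2 at the top, and GFP control replicate 2 lies highest at 9.68.

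Differences among CYCS spots varied with their place in the table. Each 25th position was a blank that carried no gene name, so the spot numbers fall into 384 runs of 24 clones and a blank. The sources used here do not say how these runs lie on the array. Over all 9169 spots, the difference at a spot correlated at r = 0.526 with the median difference of the other spots of its run, although those hold other genes. Over the 14 CYCS spots the same correlation was 0.623, and 9 of the 14 had the sign of their run, against 71.6% of all spots. Spots 1117, 3648, 8169, 8419 and 8544 had the sign opposite to that of their run. The 23 run neighbours of spot 7466 had a median difference of -0.16, those of spot 6548 -0.19 and those of spot 5449 0.21. These 3 spots thus lay in runs that differed the same way.

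**Figure D3:**
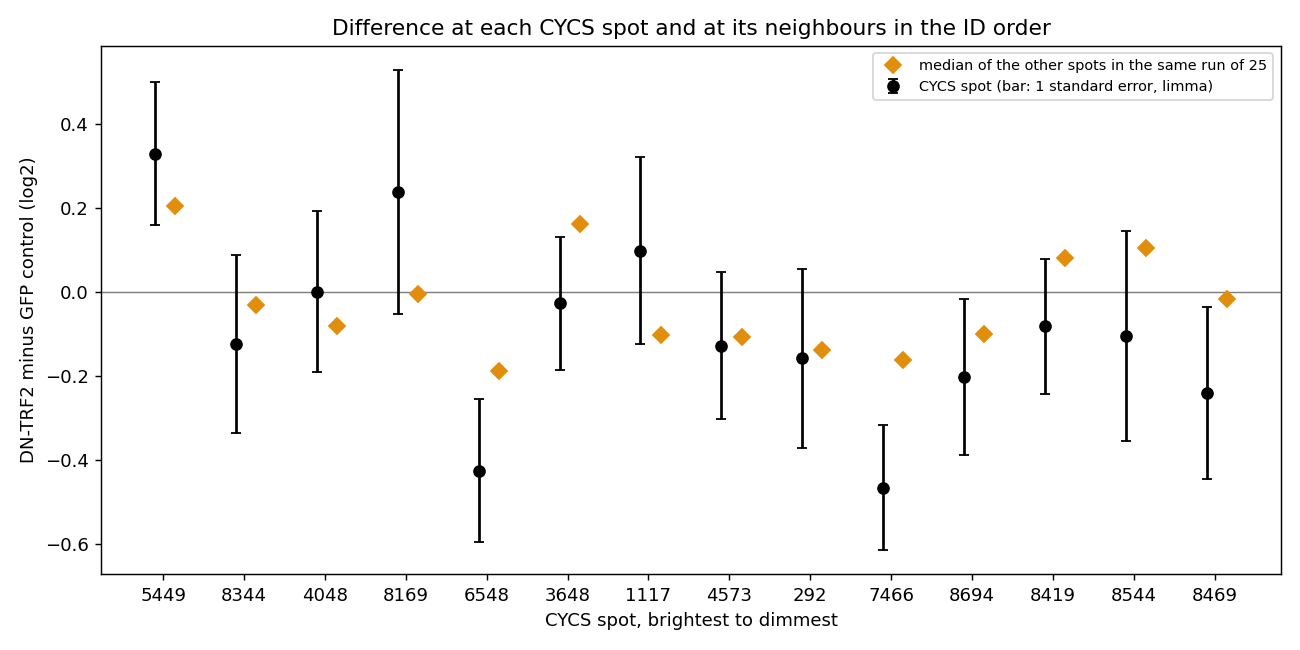
Difference between DN-TRF2 and GFP control (log2) at each of the 14 CYCS spots (black, bar 1 SE from limma) and median difference of the other spots in the same run of 25 numbers (orange). The runs of spots 6548 and 7466 lie below 0 at -0.19 and -0.16, and the run of spot 5449 above 0 at 0.21.

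A correction that takes each run's median deviation off each array, chosen after seeing the data, brought these spots closer to the others. The difference came to -0.31 at spot 7466, -0.24 at spot 6548 and 0.10 at spot 5449. At other spots it grew in size, from -0.028 to -0.20 at spot 3648 and from -0.082 to -0.22 at spot 8419. The same held for spot 1117, from 0.098 to 0.18, and spot 8544, from -0.11 to -0.19. No CYCS spot then had groups without overlap, against 8.81% of all spots. With it 10 spots were lower and 4 higher, spot 4048 having turned to 0.059, and the mean over spots differed by -0.073, from 9.32 ± 0.16 in DN-TRF2 and 9.39 ± 0.33 in GFP control (SD, n = 3 each). On the single arrays the corrected mean was 9.13, 9.43 and 9.39 in DN-TRF2 and 9.07, 9.72 and 9.38 in GFP control.

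The spots shared a profile over the arrays, and more so after this correction. Before it, the 91 pairs of CYCS spots correlated over the 6 arrays with a median r of 0.649, from -0.65 to 0.992, and 8 pairs were below 0. CYCS spots correlated with the spots of other genes at a median of 0.0072. The lowest pair was spot 7466 with spot 5449, at -0.65, while spots 7466 and 6548 correlated at 0.867. After the run correction the median was 0.830, the lowest pair stood at 0.182, and 84 of the 91 pairs were over 0.5. GFP control replicate 2 was then the highest array at 13 of the 14 spots, and a replicate 1 array of either group the lowest at all 14. With group means removed and no run correction the median was 0.750. All of these values share the same 6 arrays and RNA samples.

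**Figure D4:**
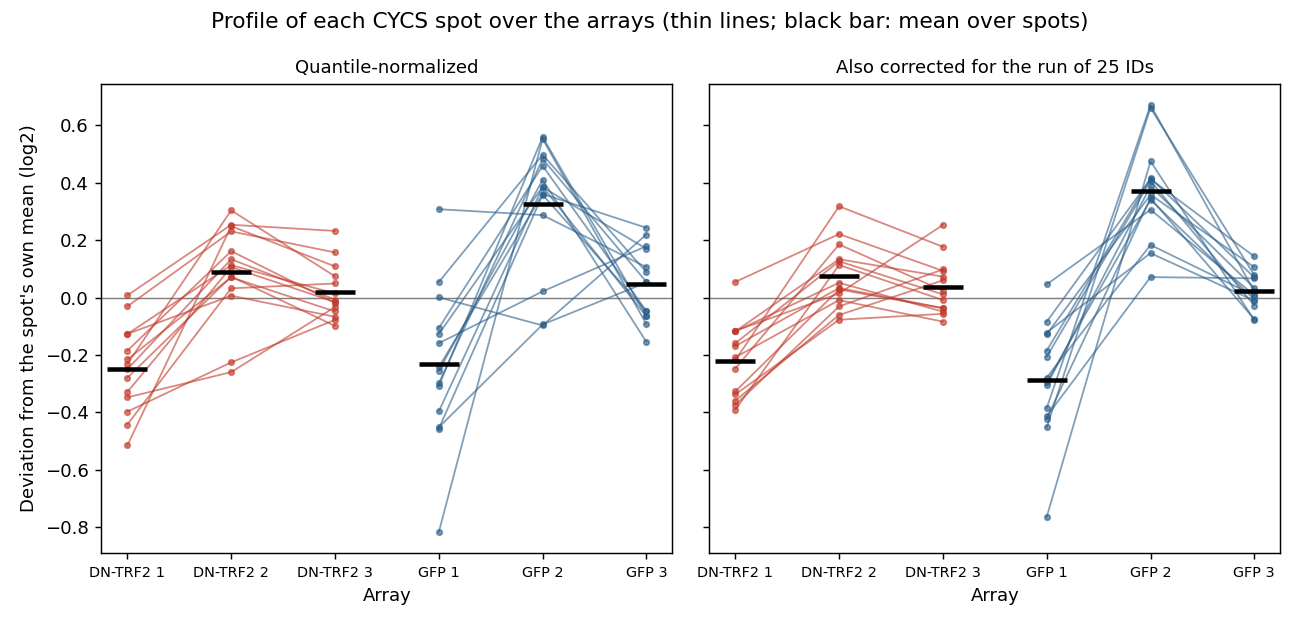
Deviation of each of the 14 CYCS spots from its own mean (log2) on the 3 DN-TRF2 arrays (red) and the 3 GFP control arrays (blue), quantile-normalized (left panel) and also corrected for the run of 25 numbers (right panel); black bars are means over spots. After the correction the lines run closer together, with GFP control replicate 2 highest at 13 of 14 spots.

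The place within a run was set beside the differences as well. Spots 8169, 8344, 8419, 8469, 8544 and 8694 all stood at place 19 of their runs. Of these 6 spots, 5 had a lower mean in DN-TRF2, and their differences ran from -0.24 to 0.24. The 4 spots at place 23 ran from -0.43 to -2.0e-05, and the 2 at place 17 from -0.16 to 0.10. The single spots at places 16 and 24 were spots 7466 and 5449, with the lowest and highest difference of the 14 (-0.47 and 0.33). Over all spots at these 5 places the median difference ran from -0.0065 at place 19 to 0.033 at place 16. Pairs of CYCS spots at a shared place correlated at a median r of 0.663, and pairs at different places at 0.649. Brighter spots tended to higher differences (r = 0.497 and Spearman correlation 0.525 over 14 spots). Without spot 5449 r was 0.263 and the Spearman correlation 0.407.

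Compared with the other 14 genes that had at least 8 spots, CYCS spots differed most in their contrast between the groups. This rank is not read as a result, since the gene was chosen by these same differences. The SD of the difference over spots was 0.22 for CYCS and between 0.060 for RPS3A and 0.19 for RPS2 in the others. After the run correction it was 0.17 for CYCS, with RPL13 close behind at 0.17 and a median of 0.091 over the other genes. The agreement of profiles was not low by the same comparison. The median pairwise r of 0.649 ranked 5th of the 15 genes, where the others ranged from -0.023 for IGHM to 0.841 for RPS3A. With the run correction CYCS ranked 4th, behind RPS3A at 0.962, TUBA1B at 0.928 and RSL24D1 at 0.882. TUBA1B, an alpha-tubulin gene with 13 spots, had 12 of them lower and a mean difference of -0.36, against -0.093 for CYCS.

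Of 423 other genes with at least 3 spots, RSL24D1, a factor of large ribosomal subunit assembly, had the profile most like the CYCS mean (r = 0.997 over 6 arrays). Its mean over 12 spots was 9.15, 9.49 and 9.46 in DN-TRF2 and 9.18, 9.72 and 9.46 in GFP control. RPS3A, a protein of the small ribosomal subunit, TSR3, which modifies ribosomal RNA, EIF3E, a translation initiation factor subunit, and GYS1, the muscle form of glycogen synthase, followed at 0.988, 0.987, 0.987 and 0.979. Each of these 5 genes was highest on GFP control replicate 2, and their differences between the groups ran from -0.12 for EIF3E to -0.054 for GYS1. Of the 423 genes, 29 had r over 0.9 with CYCS, and the median r was -0.012. All of these correlations rest on the same 6 arrays.

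The genes that donate electrons to cytochrome c or take them from it showed no difference that passed. Spots were averaged per gene for these lists, and 0 of the 6255 genes measured passed limma's adjusted p (0%), while 3.57% had an unadjusted p under 0.05. Over all genes 48.0% had a higher mean in DN-TRF2, with a median difference of -0.0067. Of the complex III genes 8 of 10 were measured, 2 higher and 6 lower, with a median of -0.082. CYC1, the cytochrome c1 that binds cytochrome c directly, lay at 9.50, 9.27 and 9.55 in DN-TRF2 and 9.57, 9.62 and 9.63 in GFP control. It differed by -0.17 ± 0.13 with a lower mean at each of 3 spots, and its groups did not overlap, which held for 8.95% of all genes. UQCRB, a small subunit, went the other way without overlap, by 0.23 ± 0.12 at its 1 spot. UQCRH, the hinge protein that aids the contact of cytochrome c with c1, differed by -0.19 ± 0.26 and UQCR11 by -0.15 ± 0.14.

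Of the complex IV genes 10 of 19 were measured, 3 higher and 7 lower, with a median of -0.018 and overlapping groups in each. COX7A1 differed by -0.25 ± 0.21 and COX8A by -0.22 ± 0.18, while COX5B differed by 0.15 ± 0.19 and COX6C by 0.068 ± 0.16. All 4 encode nuclear subunits of the enzyme and had 1 spot each. GFP control replicate 2 was the highest array at all 4, as in the CYCS mean.

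Maturation and heme supply were mixed. HCCS, the lyase that attaches heme to cytochrome c, lay at 10.21, 9.98 and 9.94 in DN-TRF2 and 10.63, 10.10 and 9.99 in GFP control, a difference of -0.20 ± 0.18 with overlapping groups. Of the 12 measured genes of 22 in heme attachment and complex IV assembly, 7 were higher and 5 lower, with a median of 0.061. COX10 and COX15, which make the heme of complex IV, differed by 0.22 ± 0.13 and 0.19 ± 0.13 without overlap, although COX10 was higher at 1 of its 2 spots. COX11, a copper chaperone of complex IV, also had no overlap but was lower, at -0.16 ± 0.12; it was named after its value was seen. SCO1, a copper carrier for complex IV, differed by 0.32 ± 0.19 and COX20, a chaperone of the enzyme, by 0.21 ± 0.14. In heme synthesis, where 6 of 8 genes were measured, ALAS1, the first enzyme of the pathway, differed by -0.24 ± 0.13 and PPOX, its penultimate enzyme, by -0.24 ± 0.12, both without overlap. UROS and ALAD, enzymes of the same pathway, differed by 0.21 ± 0.22 and -0.14 ± 0.16. The list had 2 genes higher, 4 lower and a median of -0.11. Of 9 further redox partners 2 were measured: CYB5R3, a cytochrome b5 reductase, at 0.31 ± 0.13 without overlap, and SHC1, whose longest protein form oxidizes cytochrome c, at 0.17 ± 0.18.

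On the side of cell death, APAF1 was not analysed here. CASP9, the caspase activated on the apoptosome, lay at 9.90, 9.83 and 9.86 in DN-TRF2 and 9.78, 9.79 and 10.08 in GFP control, a difference of -0.019 ± 0.13. Of 18 apoptosome and caspase genes 10 were measured, 4 higher and 6 lower, with a median of -0.024. The executioner caspase gene CASP6 differed by 0.23 ± 0.12 without overlap, and was higher at 2 of its 3 spots. CASP2 differed by 0.28 ± 0.18, the mitochondrial protease gene HTRA2 by -0.15 ± 0.13 and the apoptosis inhibitor gene BIRC2 by 0.13 ± 0.14.

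Among the genes that govern release from mitochondria, 14 of 23 were measured, 8 higher and 6 lower, with a median of 0.018. BAX, which forms pores in the outer mitochondrial membrane, lay at 8.76, 8.66 and 8.76 in DN-TRF2 and 9.03, 8.87 and 8.91 in GFP control. Its difference of -0.21 ± 0.12 at 1 spot was without overlap, alone in this list. BIK, a BH3-only killer, differed by 0.30 ± 0.18, the outer membrane channel gene VDAC1 by -0.20 ± 0.18 and the BAX relative BOK by -0.15 ± 0.18.

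Transcription factors that act on nuclear genes of respiration were covered by 6 of 12 genes, 2 higher and 4 lower, with a median of -0.17. NRF1, which is known to bind the CYCS promoter, lay at 9.38, 9.31 and 9.34 in DN-TRF2 and 9.25, 8.71 and 9.43 in GFP control, a difference of 0.21 ± 0.18. PPRC1, a coactivator of NRF1, differed by -0.29 ± 0.16 and CREB1, another known activator of CYCS, by -0.20 ± 0.12, both without overlap. The CREB1 spot was among the dimmest of the array, at percentile 0.142 of signal. GABPB1, a subunit of nuclear respiratory factor 2, differed by -0.36 ± 0.28. No gene of any list passed in either direction.

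**Figure D5:**
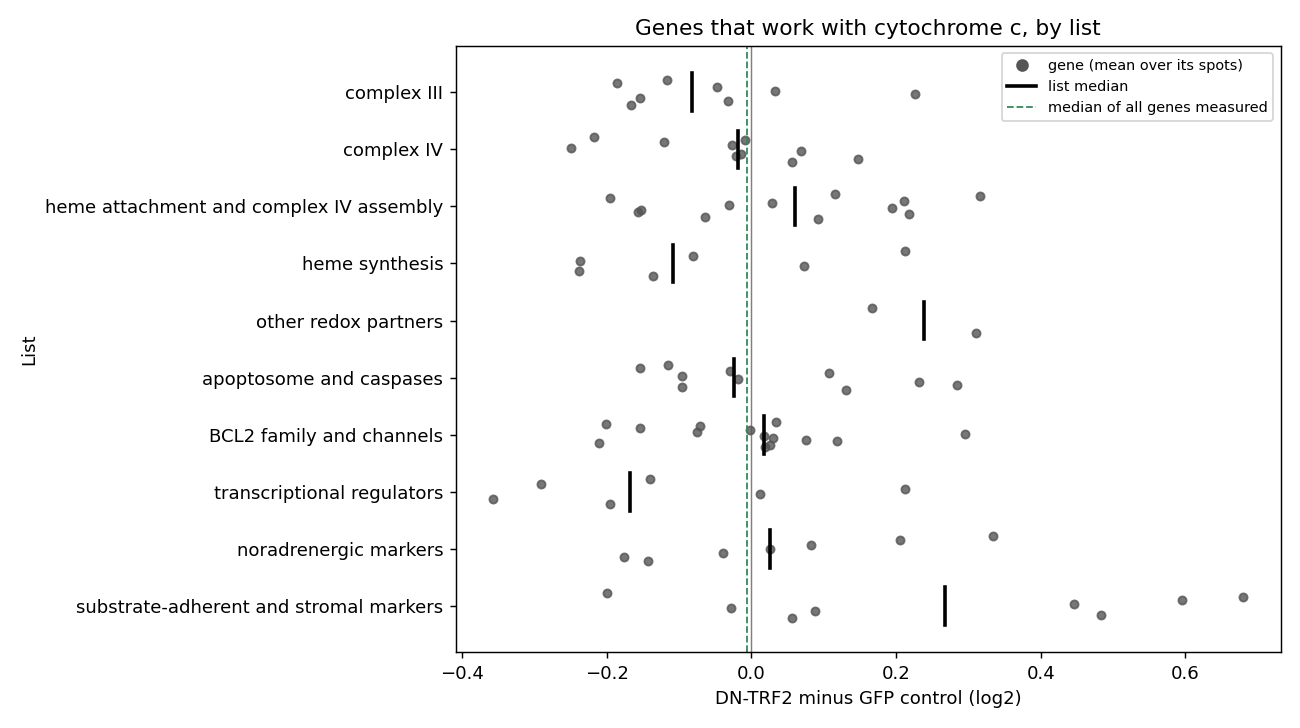
Difference between DN-TRF2 and GFP control (log2) of each measured gene (points, mean over its spots) in 8 lists of genes that work with cytochrome c and 2 lists of cell type markers; black bars are list medians and the dashed line is the median of all 6255 genes. No point passed limma's test over all genes, and the substrate-adherent list has the highest median, at 0.27.

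Markers of cell type were set beside these lists. Of the 8 measured substrate-adherent and stromal markers 6 had a higher mean in DN-TRF2, with a median of 0.27, and 0 passed. TIMP1, S100A6 and CAV2 were higher without overlap at 0.68 ± 0.14, 0.59 ± 0.13 and 0.48 ± 0.15. Over all genes 8.95% had no overlap. LUM differed by 0.45 ± 0.20. The 2 with a lower mean, named after their values were seen, were VIM at -0.20 ± 0.15 and FN1 at -0.029 ± 0.12. Of the 7 noradrenergic markers 4 were higher, with a median of 0.026, among them STMN2 at 0.33 ± 0.16 and GATA3 at 0.21 ± 0.12. CHGA and CHGB differed by -0.14 ± 0.18 and -0.18 ± 0.28. Their part in the CYCS values was not tested. In bulk RNA a change in the kinds of cells and a change in transcript per cell cannot be told apart.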

How the data were processed

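RNA of 6 samples was measured on 1-channel cDNA arrays; per the labels' protocols, labelling with 33P started from some 5 µg of total RNA. The authors deposited linear intensity values per spot; how images were read, corrected and scaled is not given in the sources used here. Blank positions (384) were left out, as were 47 spots that held the value 10 throughout. Names came from the platform annotation, with 8493 of 8517 annotated spots matched by gene ID to GRCh38.p14 symbols. After adding 50, log2 was taken and arrays were quantile-normalized. limma 3.58.1 (lmFit and eBayes, R 4.3.3) was fitted to all spots, and to gene means for lists, two-sided with Benjamini-Hochberg adjustment at 0.05. It was tested on simulated data with the same spread at all spots and a shift larger than any CYCS difference. That test cannot tell whether differences of the size at CYCS would pass. Fold changes on this scale understate changes of dim spots. The labels name 3 independent experiments, and p-values set a difference against the spread between these samples, moderated over all spots or genes. They do not say that replicate numbers pair the samples, so the main fit, with its SE and p-values, left these numbers out. Replicate number was a block in an alternative. Deviations of same-numbered arrays from their group means correlated at 0.390, 0.296 and 0.246. Named were all CYCS spots, the up to 4 genes of smallest unadjusted p per list with CYC1, HCCS, APAF1 and CASP9 among those always named, and the 5 genes most like CYCS. Other many-spot genes, and spots singled out, were chosen after their values were seen. Members, lists and rules were chosen with earlier results of these data known. Alternatives covered the offset, normalization, filters, pairing, array weights, position and each array left out. No sequence of the spotted clones was used here.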

Additional observations from a re-analysis of the deposited data

How the results depend on the processing

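The number of spots passing limma's test stayed at 0 under all alternatives but an offset of 1, where 1 spot, of BOP1, passed (chosen after its value was seen), and 0 list genes passed under any. Over 20 alternatives the CYCS mean over spots was lower in DN-TRF2 under 17 and higher under 3. The 17 include the replicate block, the filter on the dimmest quartile and all spots kept. These leave the CYCS values as they are, so the mean had to be the main value of -0.093. With 1 array left out it ran from -0.23 to 0.046, and the number of lower spots from 6 to 13 of 14. The 3 higher values were 0.046 when GFP control replicate 2 was left out, 0.0074 when DN-TRF2 replicate 1 was, and 0.012 when the spots below median signal were. The last of these leaves 7 CYCS spots, 4 of them lower. With array weights the mean differed by -0.019 and as a median over spots by -0.059. Without normalization between arrays it was -0.059, with median centring -0.11 and with the Z score -0.090. With the replicate number as a block the mean was -0.093 with 11 spots lower, which a block in this balanced design cannot change. In limma's fit with the block 527 spots over the array had an unadjusted p under 0.05, against 313 without it. The block changed no call. The 313 came to 81 without normalization, 115 without spots below median signal, 197 without the dimmest quartile, 503 with all spots kept and 583 with array weights, and ran from 141 to 792 with 1 array left out. At single spots 20 of 259 values under alternatives had the other sign, 7 of them at spot 4048. The replicate block and the alternatives on filters repeat the main value of each spot they keep. Part of the 259 values therefore could not change sign. Spots 5449, 6548, 7466, 8469 and 8694 kept their sign under every alternative that measured them. The 14 spots carry distinct clone accessions, so a mean over clones is the mean over spots and gave no further value. At blank positions 94.2% of values equalled 10, and signal over background was not measured.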

Other observations

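The tie between a spot's difference and its run of 25 spot numbers held across the whole array. Of all tested spots, 71.6% had the sign of the median of the other spots in their run, and the 384 run medians ranged from -0.22 to 0.31 (log2, DN-TRF2 minus GFP control). Of the 14 other genes with at least 8 spots, 11 had a higher median pairwise correlation of their spots after the run correction, and the median over these genes was 0.557 with it and 0.268 without it. IGHM, ACTG1 and SLC25A3 had a lower one.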
